A study of Mus musculus with 6 samples.

Results

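A set of 10 genes linked to contraction of vascular smooth muscle was followed in soleus muscle of mice that carry a single intact copy of *Mustn1*. *Mustn1* encodes a microprotein that the study places in smooth muscle cells. The genes were *Acta2*, *Actg2*, *Myh11*, *Tagln*, *Cnn1*, *Smtn*, *Myocd*, *Lmod1*, *Mylk* and *Synpo2*. They were chosen by symbol, and all 10 were among the 16180 genes with a normalized value and the 14696 genes that passed a filter on low counts. The 3 heterozygous mice (HET) carried the Mustn1 KO-first allele (tm1a), in which exon 1 is meant to be spliced into a lacZ trapping cassette with a neomycin resistance gene, and the 3 wild-type mice (WT) were littermates. The allele acts in the whole body. The study notes that its splice trap can let normal transcript through under certain conditions, which it saw after chemical muscle injury. In aorta and muscle of homozygous mice it otherwise reports an almost complete loss of the transcript. All 6 mice were of strain C57BL6/N and 8 weeks old, and each gave 1 poly-A library of 50-base reads. The sample labels call all 6 mice male, while *Xist*, a transcript of the inactive X chromosome, stood between 144 and 224 CPM (reads on a gene scaled to a common library size) in HET and between 171 and 196 in WT, and the Y-linked *Ddx3y*, *Kdm5d*, *Uty* and *Eif2s3y* had at most 9 reads in any library. The labelled sex and these transcripts thus did not match in any library of either genotype.

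Smooth muscle cells ring the arterioles of a muscle and set its blood flow by contracting. Contraction begins when calcium activates myosin light chain kinase, which lets smooth muscle myosin pull on actin, while calponin, transgelin and smoothelin bind the actin filaments. Myocardin is the co-activator that joins serum response factor (SRF) on short DNA elements called CArG boxes and turns these genes on together. Soleus is mostly muscle fibre, so in RNA from the whole muscle the vessel wall contributes a small share, and fewer smooth muscle cells cannot be told apart from less RNA per cell.

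The libraries held between 26790075 and 50368796 reads on genes. *Mustn1* (ENSMUSG00000042485) was read first as a check of the genotype. Its level was 12.6, 16.8 and 13.1 CPM in the HET mice and 23.1, 29.0 and 30.5 CPM in the WT mice, with no overlap. It fell by 0.96 on the log2 scale (SE 0.15, 95% interval -1.29 to -0.64; quasi-likelihood test of edgeR, Benjamini-Hochberg adjusted p = 0.0452), and this call was lost in 4 of 10 alternatives, in each of which 1 mouse was left out (HET mouse 1, HET mouse 3, WT mouse 1 or WT mouse 2), with adjusted p up to 0.280. No gene at all passed the threshold in those 4 fits. The muscle fibre markers were high in both genotypes, with *Acta1*, skeletal actin, at a mean of 30545 CPM in HET and 31943 in WT.

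None of the 10 contractile genes passed the threshold between HET and WT, where 0.15% of all genes tested did (22 of 14696). The fold change was above 0 for 5 of them and below 0 for the other 5, where 45.6% of all genes tested were above 0. The median log2 fold change of the 10 genes was -0.01, against -0.02 over all genes tested. *Myocd* was the only one with an unadjusted p below 0.05, against 7.76% of all genes, and the only one whose genotypes did not overlap, against 13.6% of all genes. The count of 5 below 0 rested on single mice: it was 9 without HET mouse 2, 7 without WT mouse 1, and 3 without HET mouse 1, WT mouse 2 or WT mouse 3.

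The start region of *Acta2* is shown, since among the genes searched it alone held a near match to a CArG box. In the RefSeq promoter table of build GRCm38.p6, which spans 250 bases before to 50 bases after each start, 2 stretches of the *Acta2* promoter on the minus strand of chromosome 19 come within a single base of a CArG box, each with a G or C in the core that a full box would fill with A or T. The 10 capital letters mark the box, and 10 bases are shown on either side.
Acta2 near box, chr19:34255388-34255417: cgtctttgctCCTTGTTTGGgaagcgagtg
Acta2 far box, chr19:34255438-34255467: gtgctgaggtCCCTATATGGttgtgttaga
The near box covers positions -34 to -25 and the far box positions -84 to -75 from the RefSeq start of this window. The annotation used for the counts starts *Acta2* elsewhere, at 34255336, and counted from there both boxes lie further upstream. Searched on both strands, a full box was in 1.63% of 32851 promoters, and a full box or such a near match in 9.98%. The promoters of *Cnn1*, *Lmod1*, *Mylk*, *Smtn*, *Synpo2* and *Mustn1* held neither in this window, which says only that the letters are not there. The *Mylk* window (34784700 to 34784999) lies inside the counted gene, which starts at 34745210. The *Smtn* window (3539243 to 3539542) lies inside a minus-strand gene counted from 3540612. For both, the start used for the counts was not searched. *Actg2*, *Myh11*, *Tagln* and *Myocd* had no RefSeq promoter entry here and were not searched.

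Of the smooth muscle actins, *Acta2* was abundant and *Actg2* scarce. *Acta2* (ENSMUSG00000035783, chromosome 19, 34241090 to 34255336, GRCm38.p6), smooth muscle alpha-actin and the usual marker of arterioles, stood at 54.0, 75.9 and 57.5 CPM in the HET mice and at 49.1, 71.5 and 59.3 CPM in the WT mice. The highest mouse was HET and the lowest WT, and the genotypes overlapped. The means were 62.5 ± 11.75 and 59.95 ± 11.2 CPM (SD, n = 3 each), a log2 fold change of 0.06 with a 95% interval from -0.30 to 0.42, or 0.811-fold to 1.34-fold. *Actg2* (ENSMUSG00000059430, chromosome 6), the gamma-actin of visceral smooth muscle, was barely present, with 5, 17 and 23 reads in HET and 5, 16 and 26 reads in WT. Its log2 fold change of -0.02 had an interval from -1.30 to 1.27, and at 5 reads counting alone gives an exact Poisson interval of 1.62 to 11.7 reads.

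The smooth muscle motor and its switch were also close between genotypes. *Myh11* (ENSMUSG00000018830, chromosome 16), smooth muscle myosin heavy chain, was at 37.6, 50.8 and 34.7 CPM in HET and at 24.9, 48.7 and 42.4 CPM in WT. WT mouse 1 was the lowest, at 54.6% of the mean of the other 2 WT mice, and HET mouse 2 was the highest. The log2 fold change was 0.08 (95% interval -0.51 to 0.68). *Mylk* (ENSMUSG00000022836, chromosome 16), the calcium-activated kinase of myosin light chain, was at 25.7, 35.7 and 28.4 CPM in HET and at 21.9, 35.1 and 32.1 CPM in WT, again with WT mouse 1 lowest and HET mouse 2 highest. Its log2 fold change was 0.01 (95% interval -0.40 to 0.41). Of the 50-base windows of its transcripts, 4.56% also occur in another annotated gene, the highest share among the 10 genes, so some of its reads may not have been countable.

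The actin-binding proteins split into abundant and scarce genes. *Tagln* (ENSMUSG00000032085, chromosome 9), transgelin or SM22, was at 30.5, 40.5 and 30.4 CPM in HET and at 20.7, 42.0 and 30.5 CPM in WT, with the lowest and the highest value both in WT mice. The log2 fold change was 0.12 (95% interval -0.44 to 0.68). Its exons overlap genes on the opposite strand over 67.9% of their length, which counting by strand separates. *Cnn1* (ENSMUSG00000001349, chromosome 9), calponin 1, was at 1.52, 1.71 and 0.433 CPM in HET and at 0.234, 0.958 and 1.11 CPM in WT. These are 57, 46 and 19 reads against 7, 27 and 55 reads, the widest range of the set, with the highest mouse 7.32 times the lowest. It cleared the filter level of 0.297 CPM in all 3 HET mice and in 2 WT mice. Its log2 fold change of 0.60 (SE 0.60) had an interval from -0.75 to 1.96 and a Benjamini-Hochberg adjusted p of 0.899 in the quasi-likelihood test of edgeR.

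*Lmod1* (ENSMUSG00000048096, chromosome 1), leiomodin 1, which starts new actin filaments in smooth muscle, was at 4.14, 7.27 and 3.94 CPM in HET and at 6.19, 4.398 and 5.47 CPM in WT. HET mouse 2 was again the highest, while WT mouse 1 was the highest of its genotype rather than the lowest. The log2 fold change was -0.08 (95% interval -0.62 to 0.46).

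*Smtn* and *Synpo2* differed from the other abundant genes in how they varied. *Smtn* (ENSMUSG00000020439, chromosome 11), smoothelin, was at 123, 135 and 123 CPM in HET and at 136, 114 and 138 CPM in WT, so WT mouse 1 was not low here. Its log2 fold change was -0.03 with an interval from -0.24 to 0.19. *Synpo2* (ENSMUSG00000050315, chromosome 3), synaptopodin 2 or myopodin, which also sits at the Z-disc of striated muscle, was at 1162, 1218 and 1216 CPM in HET and at 1159, 1273 and 1223 CPM in WT. Its spread was the smallest, with a coefficient of variation of 2.65% in HET and 4.69% in WT, against a median within-genotype value of 12.8% over all genes tested. The interval of its log2 fold change was the narrowest of the set, from -0.21 to 0.16 around -0.02, or 0.867-fold to 1.12-fold. The share of muscle fibres in the values of *Smtn* and *Synpo2* was not tested.

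The co-activator stood apart. *Myocd* (ENSMUSG00000020542, chromosome 11), myocardin, was at 0.321, 0.298 and 0.205 CPM in HET and at 0.502, 0.709 and 0.750 CPM in WT. The highest HET value was under the lowest WT value, and the genotype sums were 29 and 72 reads. The log2 fold change was -1.27 (SE 0.39, 95% interval -2.13 to -0.41; unadjusted p = 0.00775), but the Benjamini-Hochberg adjusted p over all genes was 0.323 in the quasi-likelihood test of edgeR, so it did not pass the threshold. Over 10 alternatives the adjusted p ran from 0.324 to 0.910. The gene cleared the filter level of 0.297 CPM in all 3 WT mice and in 2 HET mice. Its direction and non-overlap are not read as support, since the threshold was not passed and the counts were small. Exact Poisson intervals, which cover counting error only and are not scaled for depth, were 6.20 to 20.96 reads for the HET mouse with 12 reads and 8.40 to 24.7 for the WT mouse with 15, which overlap, and 4.12 to 17.1 for the HET mouse with 9 and 26.1 to 51.0 for the WT mouse with 37, which do not. *Mrtfa* and *Mrtfb*, relatives of myocardin that also bind SRF, had log2 fold changes of 0.08 and -0.11.

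**Figure D1:**
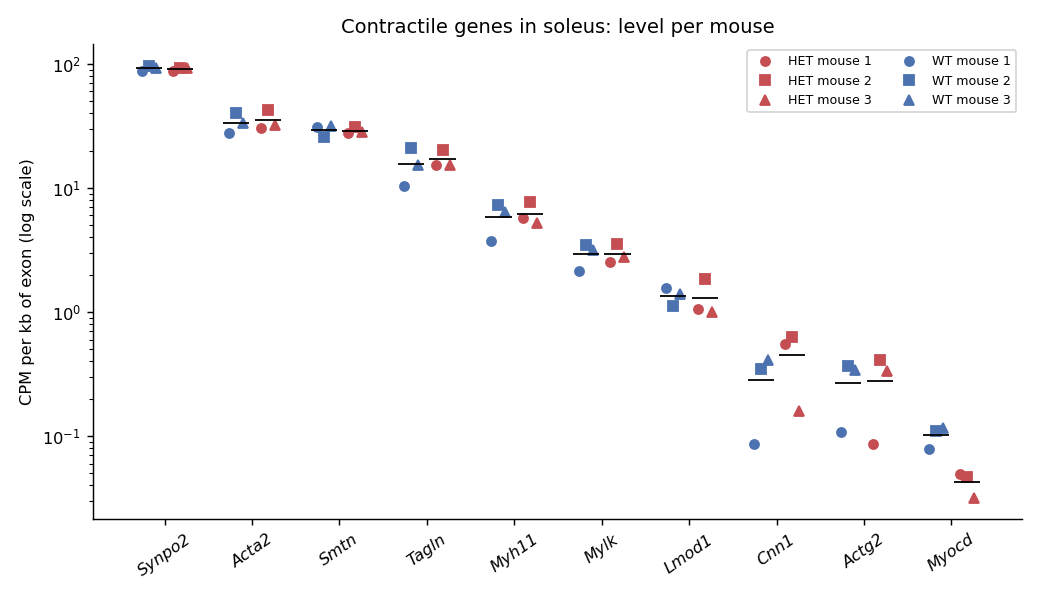
Level of each contractile gene in CPM per kb of exon (log axis) in each mouse, ordered by the mean over 6 mice, with HET in red, WT in blue, symbols for mouse number and black bars for genotype means. *Synpo2* leads at 92.0 CPM per kb and *Myocd* is last at 0.0722, and *Myocd* is the only gene whose red and blue points do not overlap.

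Compared per length of exon, which is the only scale on which genes may be ranked, the mean level over 6 mice was 92.0 CPM per kb for *Synpo2*, 34.4 for *Acta2*, 29.2 for *Smtn* and 16.3 for *Tagln*. *Myh11* followed at 6.01 and *Mylk* at 2.93 CPM per kb. *Lmod1* was at 1.33, *Cnn1* at 0.364, *Actg2* at 0.273 and *Myocd* at 0.0722 CPM per kb. *Acta2* and *Smtn* changed places between mice, as did *Cnn1* and *Actg2*, so these neighbours did not differ beyond their spread. All other neighbours kept their order in each of the 6 mice. In the same unit *Acta1* stood at 20341 CPM per kb.

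**Figure D2:**
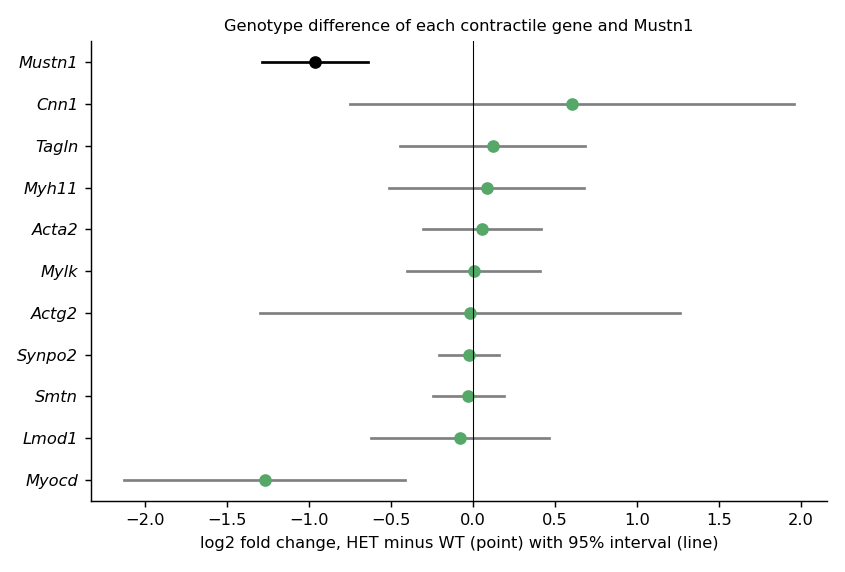
Log2 fold change of HET minus WT (points) with 95% intervals (lines) for the 10 contractile genes and *Mustn1*, from edgeR with 3 mice per genotype. Intervals of 9 contractile genes include 0, *Synpo2* has the narrowest (-0.21 to 0.16), and *Myocd* (-1.27) and *Mustn1* (-0.96) lie below 0.

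Several of the 10 genes were high or low in the same mice. HET mouse 2 had the highest CPM of the 6 mice for 6 genes (*Acta2*, *Actg2*, *Myh11*, *Cnn1*, *Lmod1* and *Mylk*), and it was the highest HET mouse for 9 genes, all but *Myocd*. WT mouse 1 was the lowest of the 6 mice for 6 genes (*Acta2*, *Myh11*, *Tagln*, *Cnn1*, *Mylk* and *Synpo2*). The summed level of *Acta2*, *Myh11*, *Tagln*, *Cnn1* and *Lmod1*, the defining markers of smooth muscle, was 128, 176 and 127 CPM in HET and 101, 168 and 139 CPM in WT, with means of 144 ± 28.1 and 136 ± 33.3 CPM (SD, n = 3 each) that differed by less than either SD.

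**Figure D3:**
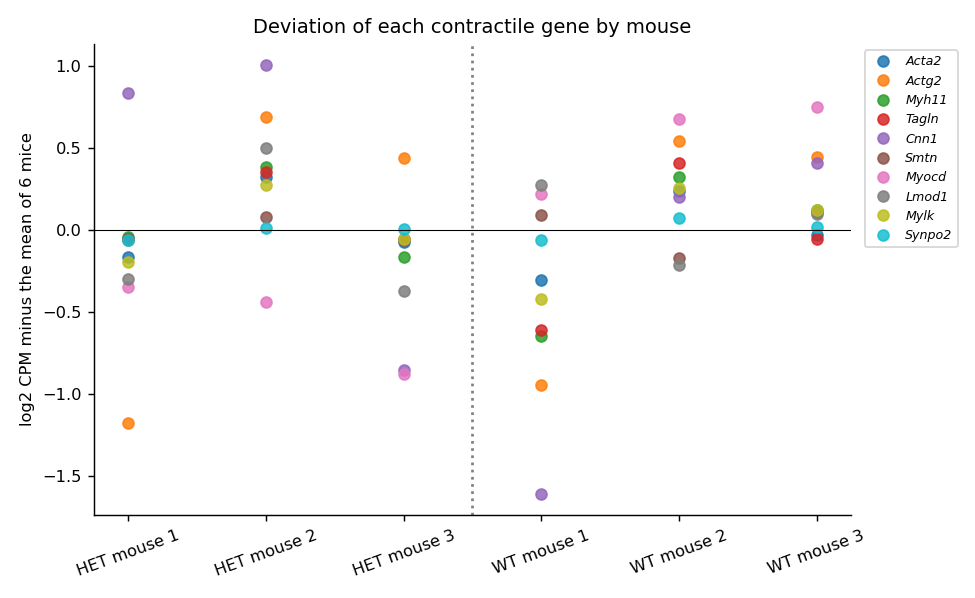
Deviation of each contractile gene from its own mean over 6 mice, in log2 CPM with a prior count of 2, for each mouse. Most points of HET mouse 2 are above 0 and most of WT mouse 1 below it, while *Smtn*, *Lmod1* and *Myocd* are above 0 in WT mouse 1 and *Synpo2* stays within 0.08 of 0 in every mouse.

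For *Acta2*, *Myh11*, *Tagln* and *Mylk*, a group formed after their values were seen, Pearson's r of log2 CPM over the 6 mice was between 0.91 and 0.96 for the 6 pairs, with Spearman's rho between 0.77 and 1. For the other 39 of the 45 pairs r ran from -0.47 to 0.87 and rho from -0.60 to 0.94, so the ranges of rho overlapped. In the 4 mice left without HET mouse 2 and WT mouse 1, r was between 0.75 and 0.95 within the group and between -0.73 and 0.95 for the other pairs. *Synpo2* had r between 0.73 and 0.86 with the 4 genes, *Lmod1* between -0.07 and 0.25, *Myocd* between 0.01 and 0.19, and *Smtn* between -0.47 and -0.21. These values describe 6 libraries and the genes of a pair share each library's depth and scaling.

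The genes outside the set with the most similar course were ranked by Pearson's r between their log2 CPM and the mean standardized level of the 10 genes, over the 6 mice and 9598 genes with a mean of at least 5 CPM. *Notch3*, the Notch receptor of vascular smooth muscle cells and pericytes, ranked first with r = 0.99, at 36.4, 49.3 and 38.7 CPM in HET and 32.8, 47.5 and 47.4 CPM in WT. *Stk10*, *Urm1*, *Mical3* and *Wasf2* followed with r from 0.97 to 0.98. Among 22 other smooth muscle genes ranked, 8 had r above 0.5, and 22.3% of all ranked genes did. *Mustn1* had r = 0.42.

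**Figure D4:**
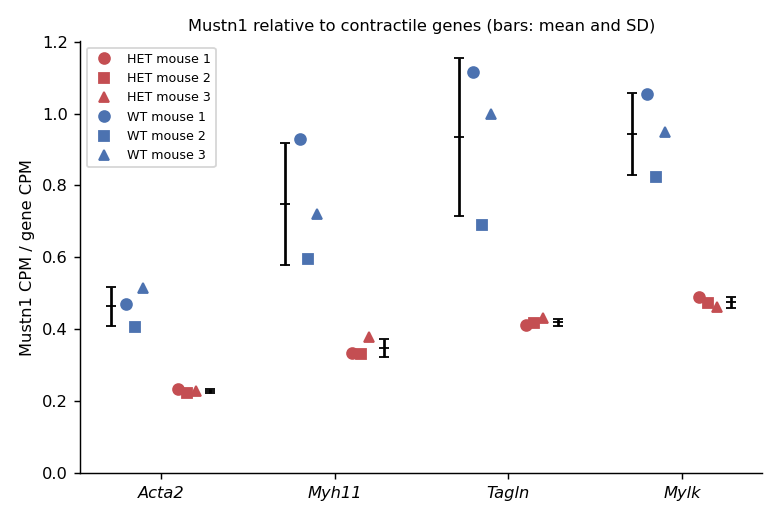
*Mustn1* CPM divided by the CPM of *Acta2*, *Myh11*, *Tagln* or *Mylk* in each mouse (HET red, WT blue, symbols for mouse number), with black bars for the mean and SD of 3 mice. HET and WT mice do not overlap for any of the 4 genes.

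*Mustn1* was then set against these genes within each mouse, since a ratio within a library does not depend on its depth. In the study's muscle-specific knockout, cells other than fibres gave the smaller part of the *Mustn1* transcript of soleus. The ratio is therefore not a level of *Mustn1* per smooth muscle cell. *Mustn1* over *Acta2* was 0.233, 0.222 and 0.227 in the HET mice and 0.471, 0.405 and 0.514 in the WT mice. The HET and WT values did not overlap. The coefficient of variation of the ratio in HET was 2.40% for *Acta2*, 2.22% for *Tagln*, 3.09% for *Mylk* and 7.31% for *Myh11*, where *Mustn1* CPM alone had 16.4%. It was 10.5% for *Smtn*, 14.9% for *Synpo2*, 17.8% for *Lmod1*, 23.7% for *Myocd*, 76.1% for *Cnn1* and 81.3% for *Actg2*, against a median of 20.4% over 14675 genes with a read in every mouse. In WT *Mustn1* alone had 14.1%, and the ratio had 11.8% for *Acta2*, 12.2% for *Mylk*, 22.6% for *Myh11* and 23.5% for *Tagln*, so the narrow spread in HET was not seen in WT. The median over the 14675 genes was 18.2% in WT. How rare a ratio as narrow as those in HET is among these genes was not tested. The ratio did not overlap between genotypes for 7 of the 10 genes, with *Actg2*, *Cnn1* and *Myocd* as the exceptions. The same held for 83.2% of the 14675 genes, since *Mustn1* itself was lower in every HET mouse, so this count is not a result about the contractile genes.

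The contractile genes have relatives with similar sequence, some used by striated muscle and some by many cell types. Of 22 such paralogs tested, 14 were above 0 and none passed the threshold, with a median log2 fold change of 0.06. In order of reads *Acta1* led with 6700819, followed by *Lmod2* with 199386, *Smtnl1* with 107624, *Lmod3* with 93118, *Synpo2l* with 84195 and *Mylk2*, the skeletal muscle kinase, with 78121. *Tagln3*, with the fewest reads (67), had the highest log2 fold change (1.22) and *Mylk4* the lowest (-0.41). Sequence shared with *Acta1* or other actins was small for *Acta2*, where 0.326% of the 50-base windows occur in another gene, and it was 0% for *Actg2*, whereas *Actg1* shared 36.3% of its own windows.

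The other smooth muscle lists were as flat, but some of their genes were far above *Acta2* in this fibre-rich muscle. *Des* had a mean of 4120 CPM in HET, *Mef2c* 1034 and *Nexn* 693, where *Acta2* had 62.5 and *Myl9* 29.3. The share of muscle fibres in the values of these lists was not tested. Of 25 other smooth muscle genes 14 were above 0 and none passed the threshold, with a median log2 fold change of 0.01, from *Kcnmb1*, a potassium channel subunit, at -0.45 to *Aoc3*, an amine oxidase of vessel walls, at 0.38. Of 23 genes around SRF and myocardin, 22 were tested (*Foxf1* was too low), 9 were above 0 and none passed the threshold, with a median of -0.03. Their ends were *Hey1*, a Notch target, at -0.35 and *Gata6* at 0.38. Of 25 genes of vasomotor signalling 13 were above 0 and none passed the threshold (median 0.02), from *Plcb4* at -0.19 to *Avpr1a*, a vasopressin receptor, at 0.60.

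Among 10 immediate early targets of SRF, 9 were above 0, against 45.6% of all genes tested. The median of the 10 was 0.42, and none passed the threshold. The range ran from *Egr1* at -0.22 to *Fosb* at 1.06. The median was 0.16 without HET mouse 2 and 0.24 without WT mouse 1, the mice that stood apart in the contractile genes. It was between 0.32 and 0.48 with any other mouse left out, and 8 to 10 of the 10 genes stayed above 0 in each of these fits.

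**Figure D5:**
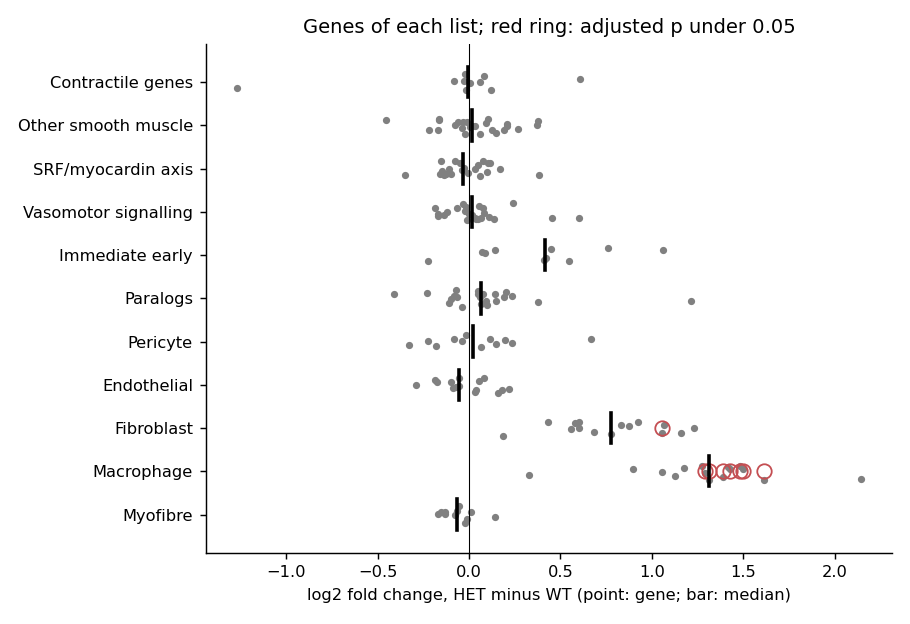
Log2 fold change of HET minus WT for each tested gene of 11 lists (grey points), with the list median as a black bar and red rings around genes with an adjusted p under 0.05. The contractile, smooth muscle and vessel lists centre near 0, the immediate early list at 0.42, and the fibroblast and macrophage lists lie wholly above 0.

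Markers of pericytes, endothelium and muscle fibres had medians near 0. Of 12 pericyte markers 6 were above 0 and none passed the threshold (median 0.02), from *Rgs5* at -0.33 to *Anpep* at 0.67. Only these 2 pericyte markers did not overlap between genotypes, against 13.6% of all genes. *Rgs5* was at 494 to 642 CPM in HET and 666 to 760 in WT. *Anpep* was at 9.32 to 12.4 CPM in HET and 5.18 to 8.23 in WT. The summed pericyte level was 1067 to 1239 CPM in HET and 1234 to 1374 in WT, which overlap. Of 15 endothelial markers 7 were above 0 and none passed the threshold (median -0.06), from *Ptprb* at -0.29 to *Cldn5* at 0.22. Of 11 muscle fibre markers 2 were above 0, against 45.6% of all genes tested. None of the 11 passed the threshold (median -0.06), from *Tnnc1* at -0.17 to *Myh2* at 0.14.

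Macrophage and fibroblast markers had higher values in HET, in lists chosen with earlier results of these data known. All 15 macrophage markers were above 0, where 45.6% of all genes tested were above 0 and 0.15% passed the threshold. Of these 15 markers, with a median log2 fold change of 1.31, 7 passed (*C1qa*, *C1qb*, *Csf1r*, *Adgre1*, *Lyz2*, *Ctss* and *Laptm5*; quasi-likelihood test of edgeR, Benjamini-Hochberg adjusted p from 0.0130 to 0.0452). Their range ran from *Mrc1* at 0.33 to *Fcgr1* at 2.14, and their summed level was 106 to 146 CPM in HET against 56.9 to 63.0 in WT. All 15 fibroblast markers were above 0 (median 0.77), from *Ly6a* at 0.18 to *Col1a1* at 1.23, with only *Pi16* past the threshold, and their summed level was 3021 to 4329 CPM in HET against 1442 to 2324 in WT. Without HET mouse 1, HET mouse 3, WT mouse 1 or WT mouse 2 no gene of the whole set tested passed the threshold, and so no marker of either list did. All 15 of each list stayed above 0 whichever mouse was left out. The macrophage calls were 13 without a filter on low counts, 10 with DESeq2, 9 with the replicate block and 9 without WT mouse 3, and the fibroblast calls were 9, 6, 7 and 4 in the same order. Over the whole table those fits called 404, 210, 116 and 83 genes. The part of these cells in the values of the 10 contractile genes was not tested.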

How the data were processed

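Soleus RNA of 3 HET and 3 WT mice was sequenced as stranded poly-A libraries. Per the labels and the submitters' processing notes, the authors aligned reads with STAR 2.7.3a to GRCm38.p6, and deposited raw counts per gene from featureCounts 2.0.3, run by strand. The authors also deposited a normalized signal, the count divided by a DESeq2 size factor per library. Gene length in bases came with the deposited table and served levels per kb. The remaining file holds the authors' own DESeq2 comparison (fold changes, p-values) and was not used. No column of values per mouse was unmatched (0).

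Genes were tested on raw counts in R 4.3.3 with edgeR 4.0.16: filterByExpr with a minimum count of 10, TMM scaling, the robust quasi-likelihood test with genotype only, 6 mice, two-sided, Benjamini-Hochberg adjustment over all 14696 genes, threshold 0.05. CPM use the TMM factors. Log2 CPM had a prior count of 2. The alternatives were RLE scaling, no filter, DESeq2 1.42.0, the replicate number as a block, and each mouse left out. The fit was tested on simulated counts. Shared 50-base windows were searched in GENCODE M21 transcripts, since no genome was used here. Tables and plots were made with Python 3.11.15, pandas 2.3.3 and matplotlib 3.10.9.

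The 10 genes and all lists were chosen with earlier results of these data known. Named singly were the 10 genes, *Mustn1*, paralogs in order of reads, and in each list the genes past the threshold and at the ends of its range. The 5 genes most alike, genes that check the labels and genes that show the levels within a list were also named. The labels do not tie mice to litters, so p-values measure only the spread between these 6 libraries.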

Additional observations from a re-analysis of the deposited data

How the results depend on the processing

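None of the 10 contractile genes passed the threshold in any of the 10 alternatives. The median log2 fold change of the 10 genes was -0.005 in the main fit. It ran from 0.0001 to 0.016 in the alternatives that kept all mice, and from -0.09 to 0.17 with a mouse left out, so its sign depended on the mice. *Myocd* ran from -1.42 to -1.07, with adjusted p (edgeR or DESeq2) from 0.324 to 0.910, and *Cnn1* from 0.20 to 1.03. Without a filter on low counts they were at -1.26 and 0.61. Both rest on the same few reads in every alternative, so the unchanged sign is not read as support. With a mouse left out, the other 8 changed sign at least once, within -0.0907 to 0.20 for *Acta2*, -0.37 to 0.42 for *Actg2*, -0.15 to 0.28 for *Myh11*, -0.10 to 0.39 for *Tagln*, -0.11 to 0.0218 for *Smtn*, -0.39 to 0.0828 for *Lmod1*, -0.17 to 0.14 for *Mylk* and -0.0593 to 0.00737 for *Synpo2*. With DESeq2's Wald test *Actg2* was at 0.0186. The number of the 10 genes below 0 ran from 3 to 9 with a mouse left out. The number of genes called over the whole table, 22, was 404 without a filter, 210 with DESeq2 and 116 with the replicate block, and 0 to 83 with a mouse left out. It was 0 without HET mouse 1, HET mouse 3, WT mouse 1 or WT mouse 2, so those fits say nothing of the contractile genes in particular. The cause of these differences was not tested. *Mustn1* ran from -1.09 to -0.88 and passed in 6 alternatives. Same-numbered HET and WT mice had correlations of 0.203, -0.00578 and -0.0349 of their deviations, and the other pairs ran from -0.137 to 0.133. With 3 mice per genotype such values cannot show whether same-numbered mice shared a litter or batch. With the block *Mustn1* passed the threshold and no contractile gene did. Beyond the contractile genes, leaving out the filter put *Flna*, *Mylk4*, *Tagln2*, *Anpep*, 8 more fibroblast markers and 6 more macrophage markers past the threshold. Counts below 60 reads limit *Actg2*, *Cnn1* and *Myocd*.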
